A study of Homo sapiens with 44 samples.

Results

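In Ccd18-Co, a fibroblast line from human colon, 557 accessible chromatin regions were opened by tumor necrosis factor (TNF). Under interleukin-1β (IL-1β) they stayed near or below the unstimulated level. They were 557 of 407383 regions (0.137%) measured by ATAC-seq, a method that reads where an added transposase can reach the DNA. Coverage of each region, called a peak below, was divided by the library's total over all peaks and is given per Mb, that is, bases of read coverage in the peak for each Mb of read coverage over all peaks. The members were chosen by 3 measured values: a TNF difference of at least 1 and an IL-1β difference under 0.3, each being the mean of log2(coverage per Mb + 0.5) in that cytokine's libraries minus the mean in the unstimulated libraries, and a mean coverage per Mb of at least 3 under TNF. The rule read the unstimulated, IL-1β and TNF libraries, so their levels are given as a description with no test.

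The 44 libraries formed 11 groups of 4: unstimulated cells, and cells given IL-1β at 0.1 ng/ml or, at 10 ng/ml, TNF, oncostatin M (OSM), TGF-β1, IFNα, IFNγ, IL-6, IL-13, IL-17A or IL-22. All groups were the same line, kept without serum for 72 h before 24 h of stimulation, per the study's methods. TNF and IL-1β were therefore compared at 10 and 0.1 ng/ml, and the cytokine and the dose cannot be told apart. These are the labelled doses, and a figure legend of the study gives a lower one for IL-1β. Whether the replicates were separate cultures is not stated, so p-values measure the spread between these libraries, which may be technical. In the plots, groups carry gene symbols (IL1B, IFNA, IFNG, TGFB1).

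TNF and IL-1β are inflammatory cytokines that bind unrelated receptors. Both receptors lead to the kinase complex that frees NF-κB, a family of transcription factors held in the cytoplasm by inhibitors such as IκBα, and both activate the kinases upstream of AP-1 factors (FOS and JUN family dimers). In fibroblasts both cytokines are known inducers of chemokines, adhesion molecules and matrix proteases.

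The sequences below show what the leading members hold. Each is a stretch of 121 bases from the reference genome (hg38, plus strand, 5′ to 3′) with an NF-κB consensus match in capitals where there is one. The first pair are from members with a TNF difference above 2 and a match, the next is from the promoter-class member with the highest TNF coverage, and the last is from the member with the highest TNF coverage of all, which held neither an NF-κB nor an AP-1 match.
SUPT4H1 intron, chr17:58344539-58344659: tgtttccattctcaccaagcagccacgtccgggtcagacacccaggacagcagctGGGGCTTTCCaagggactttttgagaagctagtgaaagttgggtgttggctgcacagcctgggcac
CCL5 distal, chr17:35892762-35892882: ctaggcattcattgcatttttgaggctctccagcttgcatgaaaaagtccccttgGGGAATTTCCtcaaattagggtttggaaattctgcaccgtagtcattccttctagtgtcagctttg
DUSP5 promoter, chr10:110496133-110496253: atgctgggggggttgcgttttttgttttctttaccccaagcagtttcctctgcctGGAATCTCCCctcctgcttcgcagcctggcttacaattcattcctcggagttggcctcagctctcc
COPRS distal, chr17:31739480-31739600: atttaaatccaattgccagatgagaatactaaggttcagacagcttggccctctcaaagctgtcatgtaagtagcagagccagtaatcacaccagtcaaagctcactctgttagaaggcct
In DUSP5 the match lies on the minus strand, and the capitals show its plus-strand letters. The CCL5 peak held 2 NF-κB matches over its full width, and the SUPT4H1 and DUSP5 peaks held 1 each.

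Across the 557 members, the median coverage per Mb in a library was 2.09 ± 0.07 in unstimulated cells, 2.23 ± 0.09 under IL-1β and 5.55 ± 0.28 under TNF (mean ± SD, n = 4 libraries each). The 4 TNF libraries had medians of 5.40, 5.94, 5.56 and 5.30, and every other library lay between 1.99 and 2.94. The groups other than TNF were ordered, from low to high, as unstimulated, IL-17A (2.19 ± 0.11), IL-1β, IFNγ (2.25 ± 0.05), IL-6 (2.37 ± 0.07), IL-22 (2.40 ± 0.04), OSM (2.42 ± 0.11), IL-13 (2.46 ± 0.05), IFNα (2.48 ± 0.09) and TGF-β1 (2.77 ± 0.13). The library ranges of the neighbours in this order overlapped up to IFNα, and the lowest TGF-β1 library (2.66) lay above the highest IFNα library (2.59). The rule favours peaks low in the unstimulated and IL-1β libraries, so the low place of these groups is partly set by the choice. TNF gave the highest of the 11 group means in 477 members, TGF-β1 in 40, IFNγ and OSM in 13 each, IL-13 in 11, IFNα in 2 and IL-17A in 1. Among the 8 groups that the rule did not read, TGF-β1 gave the highest mean in 30.0% of members and 30.9% of all peaks. OSM gave it in 14.5% of members and 7.53% of all peaks.

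**Figure D1:**
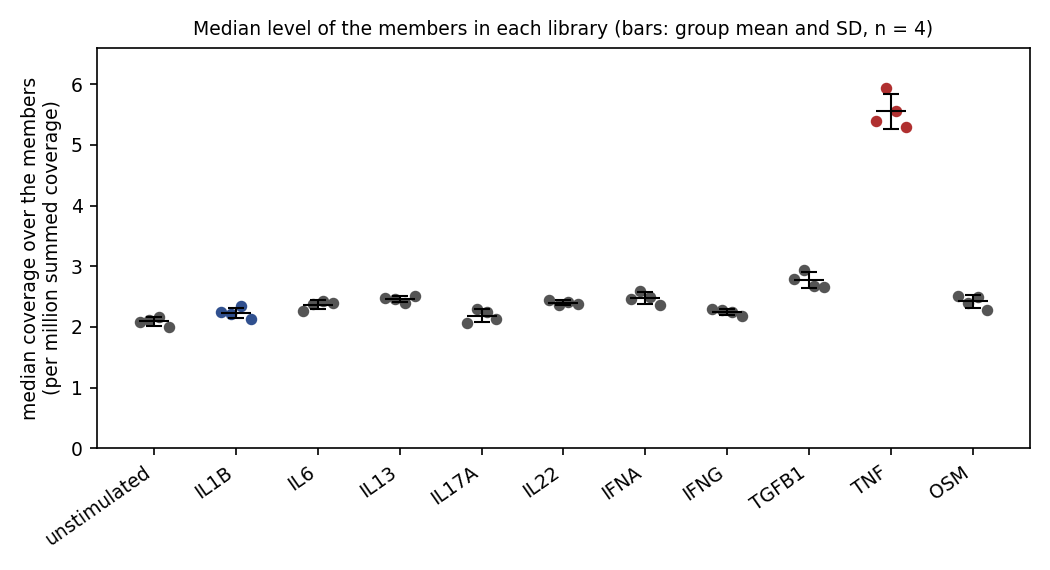
Median coverage per Mb over the 557 members (y axis) in each of the 44 libraries (points), by group (x axis), with bars for the group mean and SD of 4 libraries. The TNF libraries sit between 5.30 and 5.94, and all other libraries between 1.99 and 2.94, a gap that the choice of members fixes.

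Most members had some coverage without cytokine, below the 3 per Mb that the rule asks under TNF, and rose by little over the threshold. No coverage was set above which a peak counts as accessible, so how many members were open before TNF was not tested. Mean unstimulated coverage per Mb was under 1 in 44 members, from 1 to under 3 in 354 and 3 or more in 159. The TNF difference ran from 1.00 to 3.09 with a median of 1.18, was under 1.2 in 304 members and reached 2 in 15. The IL-1β difference ran from -0.95 to 0.30 with a median of 0.10, was under 0 in 185 members and at or under -0.3 in 46. All 4 TNF libraries exceeded all 4 unstimulated libraries in 502 members (90.1%; 4.47% of all peaks), and all 4 IL-1β libraries in 474 (85.1%; 2.94% of all peaks), counts that the choice of members largely fixes.

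Peaks that passed the TNF difference and the TNF coverage numbered 5112, and the members were 10.9% of them. Peaks opened by both cytokines, with an IL-1β difference of 1 or more, were 2212 (43.3%), and 2343 lay between. The members are the low end of a continuous range of IL-1β differences. Just outside the IL-1β limit lay a SFTA1P peak at 0.30012. At the TNF difference limit a MAP3K5 peak lay inside at 1.0004 and a SRGAP1 peak outside at 0.9994, and at the coverage limit a CCL2 peak lay inside at 3.013 per Mb and a ZNF384 peak outside at 2.998.

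**Figure D2:**
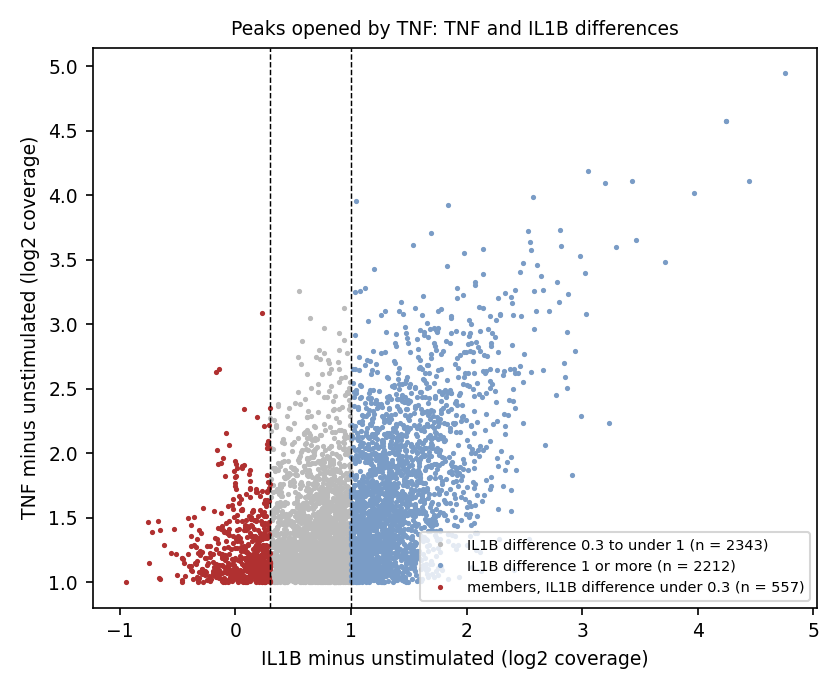
Each point is one of the 5112 peaks opened by TNF, with its IL-1β difference (x axis) and TNF difference (y axis) from unstimulated cells, both in log2(coverage per Mb + 0.5), means of 4 libraries; dashed lines mark IL-1β differences of 0.3 and 1. The 557 members form the left edge of 1 cloud, with no gap at 0.3.

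Which peaks fell inside the rule depended on single libraries. Leaving out 1 unstimulated, TNF or IL-1β library gave 524 to 659 members and kept 67.7% to 91.0% of the 557, with the fewest kept without unstimulated replicate 3. With a pseudocount of 2 in place of 0.5 the rule found 258 peaks, of which 136 were among the 557. The median coefficient of variation of a member was 20.3% over the TNF libraries and 33.0% over the unstimulated ones.

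The member with the largest TNF difference, at 3.09, was an intronic peak of the long non-coding RNA gene LINC01449. Its coverage per Mb was 0.969, 1.14, 1.55 and 0.50 in unstimulated cells, 1.81, 0.921, 1.03 and 1.36 under IL-1β, and 9.20, 14.6, 13.5 and 12.2 under TNF. Every TNF library lay far above the other groups, whose means ran from 0.869 under IL-17A to 2.30 under IFNα. An intronic peak of SUPT4H1 (chr17:58344338-58344838), which encodes a transcription elongation factor, had a TNF difference of 2.66. Its coverage per Mb was 1.68, 1.47, 1.79 and 1.78 unstimulated, 0.836, 1.88, 1.11 and 2.44 under IL-1β, and 13.5, 14.6, 12.6 and 12.2 under TNF. Unstimulated and IL-1β libraries overlapped at this peak, and TNF did not overlap either.

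A distal peak named for CCL5 (chr17:35892598-35893098), a chemokine that attracts T cells and monocytes, had a TNF difference of 2.63 and lay 12.1 kb from the CCL5 start site. Its coverage per Mb was 0.401, 0.858, 0.222 and 0.542 unstimulated, 0.389, 1.29, 0 and 0.227 under IL-1β, and 6.30, 6.44, 3.73 and 6.31 under TNF. Unstimulated coverage here was at the level of a few reads per library, where 1 read of 75 bases is worth 0.143 to 0.228 per Mb. Other members with large TNF differences were a distal peak named for LINC01539 (chr18:56283320-56283820) at 2.34 and a peak named for MIR5704 in an intronic region (chr3:131898391-131898891) at 2.28.

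The members with the highest TNF coverage had TNF differences close to 1. A distal peak named for COPRS (chr17:31739290-31739790), a histone-binding partner of an arginine methyltransferase, read 17.6, 21.3, 18.3 and 13.8 per Mb unstimulated, 25.7, 20.7, 24.5 and 16.2 under IL-1β, and 33.5, 40.6, 40.0 and 36.2 under TNF. The peak was 119 kb from the COPRS start site, and IL-1β and unstimulated libraries overlapped. A peak named for MIR8073 (chr13:110359893-110360393), inside an intron and 52.8 kb from the start of the basement membrane collagen gene COL4A2, had group means of 16.7 ± 1.68 unstimulated, 19.3 ± 4.64 under IL-1β and 35.2 ± 3.23 under TNF (SD, n = 4). The next were named for LOC100506422 (34.6 per Mb under TNF), LINC01539 (33.6), CLDN16 (29.5) and CARS (28.5), all with TNF differences from 1.1 to 1.24.

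Few members were promoters. By the deposited classes 13 members (2.33%) were promoter, 16 (2.87%) exonic, 302 (54.2%) intronic and 226 (40.6%) distal. Promoters were 2.85% of the peaks opened by both cytokines, 7.15% of all peaks and 18.1% of the 79352 peaks with TNF coverage of 3 per Mb or more. A GENCODE v44 transcript start lay no more than 1 kb from 8.98% of members, 11.8% of peaks opened by both and 39.7% of peaks at that TNF coverage. Mean GC content was 43.2% in members, 44.9% in peaks opened by both and 51.5% in peaks at that TNF coverage. The differences between these sets were not tested.

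The promoter-class member with the highest TNF coverage was at DUSP5 (chr10:110495892-110496392), a phosphatase that inactivates the kinase ERK in the nucleus, with 9.12, 6.18, 4.43 and 4.75 per Mb unstimulated, 7.39, 7.32, 6.75 and 7.65 under IL-1β, and 17.9, 11.2, 11.9 and 11.0 under TNF. The lowest TNF library exceeded the highest unstimulated library by little. The annotated start nearest to the peak, 0.045 kb away, was that of the divergent transcript DUSP5-DT, and DUSP5 itself started 1.76 kb away. EGOT, a long non-coding RNA gene, had the larger TNF difference, 1.94, at its promoter peak (chr3:4751535-4752035), with means of 2.47 ± 0.53 unstimulated, 2.51 ± 0.80 under IL-1β and 10.8 ± 1.38 under TNF (SD, n = 4). Other promoter-class members were at LINC00475 (10.4 per Mb under TNF), ARHGEF40 (8.12), LINC01291 (7.80), MYCT1 (6.70), RXRA, the retinoid X receptor (6.21), and CTSK, the matrix-degrading protease cathepsin K (4.61).

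NF-κB matches were nearly as frequent in members as in peaks opened by both cytokines, while AP-1 matches were less frequent by count. The NF-κB consensus was found in 35.7% of members, 38.7% of peaks opened by both, 17.0% of peaks with TNF coverage of 3 per Mb or more and 13.0% of all peaks. AP-1 (TGANTCA) was found in 40.6% of members, 56.6% of peaks opened by both, 35.1% of peaks at that TNF coverage and 25.7% of all peaks. In the peaks with an IL-1β difference from 0.3 to under 1 it was found in 53.8%. By IL-1β difference over TNF-opened peaks, the AP-1 share was 44.3% under 0, 59.1% from 1 to under 1.5 and 44.1% at 2 or more. Both strands of the whole peak were searched, and a match describes letters, not binding. Neither motif was found in 35.2% of members (196) and 23.6% of peaks opened by both. The differences between sets were not tested, and GC content differs between them as given above.

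Among members with an NF-κB match, 110 of 199 had one within 50 bases of the peak centre. The NF-κB share was 27.2% in the 184 members with the smallest TNF differences (1 to under 1.1), 34.0% in the next 162, 42.5% in the next 127 and 47.6% in the 84 members at 1.5 or more. The AP-1 share went the other way over the same bins, at 48.4%, 45.7%, 36.2% and 20.2%. The order held in each step of both motifs, over bins that the rule's own value defines. TEAD (CATTCCA) was found in 18.3% of members, 11.6% of peaks opened by both and 10.5% of all peaks, and RUNX (TGTGGTT) in 17.4%, 14.5% and 10.9%. C/EBP (TTGCNNAA), the interferon element ISRE (GAAANNGAA) and the STAT element GAS (TTCNNNGAA) were in 25.9%, 19.4% and 19.0% of members, against 25.8%, 18.7% and 17.2% of all peaks. Matches of different motifs may overlap in a peak.

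**Figure D3:**
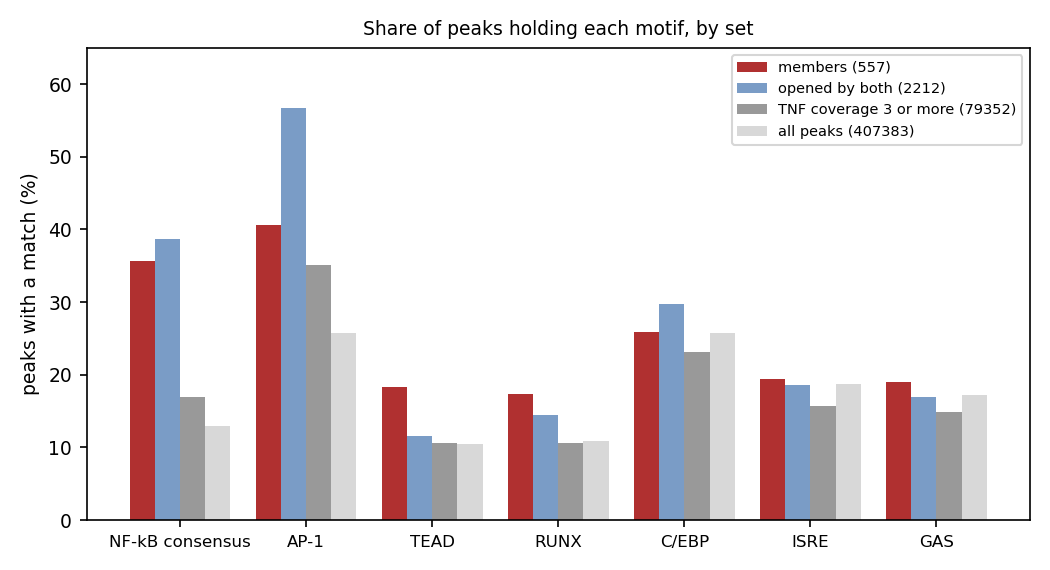
Percentage of peaks (y axis) holding a match to each motif (x axis) in the 557 members, the 2212 peaks opened by both cytokines, the 79352 peaks with TNF coverage of 3 per Mb or more and all 407383 peaks. Members sit at 35.7% for NF-κB beside 38.7% in peaks opened by both, and at 40.6% for AP-1 beside 56.6%.

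Most of the gene lists examined held few members or none. Of 5 NF-κB subunit genes and 12 genes of NF-κB feedback inhibitors (such as NFKBIA and TNFAIP3) none was named by a member, while 7 and 14 of the peaks opened by both cytokines were. These lists name 156 and 391 peaks, and at the 0.137% of all peaks that are members a count of 0 is near the background. Adhesion and surface genes (11), matrix proteases (15), AP-1 family genes (12), interferon pathway genes (21) and prostaglandin and lipid mediator genes (8) also had 0 members, against 5, 6, 1, 4 and 5 peaks opened by both. These lists name 428, 558, 252, 393 and 329 peaks. Of all 407383 peaks, 2212 were opened by both. For comparison, members named 515 of the 23388 genes in the table (2.2%), and 144 of the 515 also had a peak opened by both. Only the 79352 peaks with TNF coverage of 3 per Mb or more could be members. The 0.137% is over all peaks, and list shares here and below were not set against that smaller number. A peak is named for a gene by the deposited table, which does not show that it acts on that gene.

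Among 18 chemokine genes, 2 had a member each, CCL5 and CCL2, a monocyte chemoattractant. The genes with a peak opened by both cytokines were 8, with 42 such peaks. Of the 360 peaks named for the list, 0.556% were members and 11.7% were opened by both, against 0.137% members among all peaks. The CCL2 peak (chr17:34259055-34259555) read 1.54, 0.569, 0.904 and 1.36 per Mb unstimulated, 0.310, 2.21, 1.01 and 2.04 under IL-1β, and 3.75, 2.81, 2.55 and 2.94 under TNF. All TNF libraries lay above the unstimulated and IL-1β libraries, by little. Under OSM the mean at this peak was 3.014 per Mb, beside 3.013 under TNF, and IL-6 replicate 4 read 6.76. Of 20 TNF receptor and signalling genes only TRAF3, an adaptor of that receptor family, had a member, at its promoter (chr14:102777268-102777768), with 4.14, 2.34, 4.35 and 3.44 per Mb under TNF against at most 1.5 unstimulated and 2.12 under IL-1β. Of 18 IL-1 receptor and signalling genes only IL1B, the gene of IL-1β itself, had a member. That distal peak (chr2:112814242-112814742) read 0.675, 1.70, 2.55 and 0.965 unstimulated, 1.34, 0.521, 1.21 and 1.84 under IL-1β, and 4.57, 3.73, 5.55 and 4.10 under TNF. Members were 0.177% of the 566 peaks named for the TNF list and 0.262% of the 382 named for the IL-1 list.

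Of 24 cytokine and growth factor genes, 5 had 7 members, against 22 peaks opened by both cytokines. The 7 were 0.784% of the 893 peaks named for the list, against 0.137% of all peaks. A distal peak named for VEGFC, a growth factor of lymphatic vessels, read 12.1, 11.0, 10.8 and 9.39 per Mb under TNF, above 3.55 to 4.45 unstimulated and 3.48 to 5.08 under IL-1β. CSF1, which sustains macrophages, had intronic members 2.35 and 12.4 kb from its start site. The nearer one (chr1:109917754-109918254) read 3.18, 2.58, 1.91 and 2.03 unstimulated, 3.02, 3.18, 3.35 and 1.14 under IL-1β, and 9.89, 13.7, 8.25 and 9.45 under TNF. The IL-1β and unstimulated libraries overlapped, and TNF overlapped neither. FGF2, a fibroblast growth factor, had an intronic member 1.36 kb from its start with 6.80, 9.27, 11.0 and 9.17 per Mb under TNF, where 1 IL-1β library reached 6.12. TNFSF15, a TNF superfamily ligand, had 2 members and IL32, an inflammatory cytokine, had 1.

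The list of collagen and contractile genes, which also held TNC, had the most members, 9 peaks at 4 of 17 genes. It had 1 peak opened by both cytokines. The 9 made up 1.08% of the 832 peaks named for the list, against 0.137% of all peaks, most of which lay below the rule's TNF coverage. The genes were TNC (5 members), COL6A3 (2), COL4A1 (1) and COL12A1 (1). TNC encodes the matrix glycoprotein tenascin C, known to be made by activated fibroblasts, and the others encode collagen chains. None of these 4 is a contractile gene. The stronger COL6A3 peak (chr2:237431345-237431845) read 2.40, 5.35, 5.43 and 5.57 per Mb unstimulated, 2.16, 2.62, 4.68 and 5.23 under IL-1β, and 12.1, 9.66, 10.4 and 6.93 under TNF. IL-1β did not exceed the unstimulated range in any library here.

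TNC had more members than any other gene, 5 of its 72 named peaks, and none of its peaks was opened by both. Beside the intronic members lay 3 TNC peaks with IL-1β differences between the limits, and at the one 2.09 kb inside the gene the means were 2.60 per Mb unstimulated, 4.93 under IL-1β and 6.87 under TNF. LINC01539 had 4 members and DEC1 3, also with no peak opened by both, and 33 further genes had 2. No more than 6 members fell in any stretch of 100 kb, and both such stretches, chr9:115017487-115112303 and chr9:115106522-115159653, overlap TNC (hg38, GENCODE v44 gene chr9:115019575-115118207, minus strand). Of the members there, 2 carry the name of TNFSF8, a TNF superfamily ligand, and 1 of them (chr9:115022963-115023463) lies inside the TNC gene body. The 4 intronic TNC members lay between 6.15 and 11.4 kb inside the gene from its outermost start site, and a member classed as exonic lay 9.10 kb before it.

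At the member before the TNC start (chr9:115127054-115127554), coverage per Mb was 3.31, 3.95, 2.27 and 2.07 unstimulated, 4.61, 3.12, 2.92 and 3.24 under IL-1β, and 6.26, 9.23, 9.84 and 9.55 under TNF. In the intronic group the peak at chr9:115111061-115111561 read 2.85, 3.04, 3.38 and 3.93 unstimulated, 4.34, 3.92, 3.99 and 2.87 under IL-1β, and 7.66, 7.07, 6.94 and 6.97 under TNF. At both peaks the IL-1β and unstimulated libraries overlapped and TNF stood above them. The promoter-class peak at the TNC start site was no member, with means of 13.4 per Mb unstimulated, 12.9 under IL-1β and 17.5 under TNF. The other 3 intronic TNC members had TNF means of 4.58, 5.84 and 6.79 per Mb. The strongest member of the stretch was the one in the far part of the gene body, named TNFSF8, with 12.7 per Mb under TNF, 5.26 unstimulated and 3.82 under IL-1β.

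**Figure D4:**
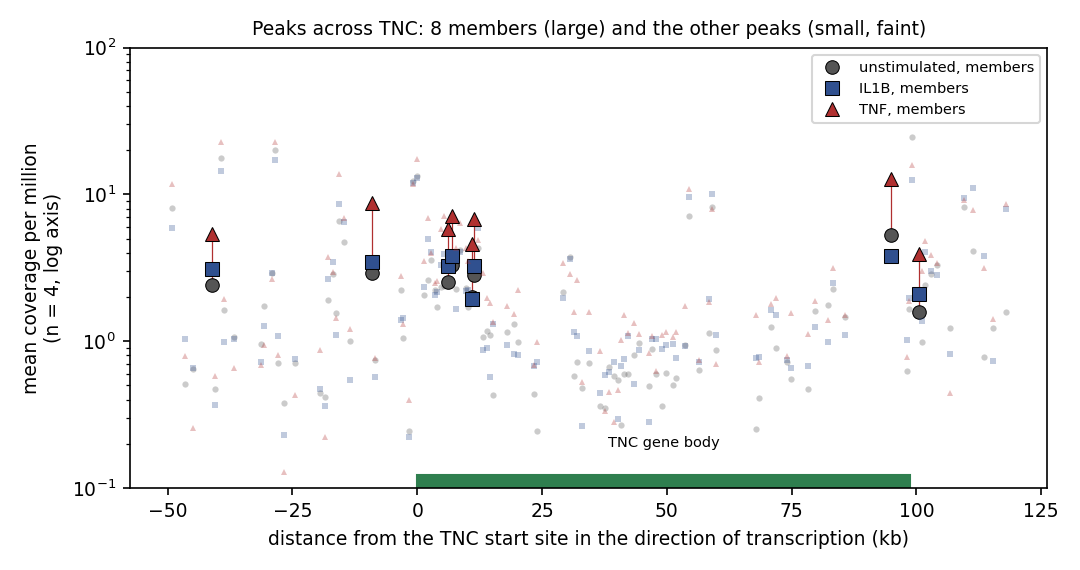
Mean coverage per Mb of 4 libraries (y axis, log scale) of peaks around TNC against the distance of their centre from the TNC start site in the direction of transcription (x axis, kb), for unstimulated, IL-1β and TNF libraries. Large symbols are the 8 members, small faint ones the other peaks, the green bar is the gene body, and red lines join the unstimulated and TNF means of a member.

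Members also lay nearer to each other than other peaks lay to them: 13.3% had another member within 100 kb, while 7.38% of other peaks with TNF coverage of 3 per Mb or more had a member within that distance. A peak opened by both cytokines lay within 100 kb of 31.1% of members and of 24.6% of other peaks at that coverage. These shares were not tested.

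The 32 libraries of the other 8 cytokines took no part in choosing the members, and each cytokine was tested there against the mean of the other 7, with limma over 407084 peaks and Benjamini-Hochberg adjustment over all of them. All 557 members were tested. These comparisons share libraries with each other, and raised or lowered means relative to the other 7 cytokines, not to unstimulated cells. At an adjusted p under 0.05 in at least 1 of them were 265 members (47.6%), against 18.2% of all tested peaks. Members have more coverage than most peaks, which bears on how often a difference is called. For this reason shares are also given for 74240 peaks of like TNF coverage. These had TNF coverage of 3 per Mb or more and were not opened by TNF. They share only this limit with the members and were not matched for coverage in the tested libraries. There the members' median coverage per Mb ran from 2.19 under IL-17A to 2.77 under TGF-β1, against 5.55 under TNF. Comparisons with these peaks therefore do not control for coverage in the tested libraries. Differences between sets were not tested.

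IL-17A lowered 41 members and raised 15. Of all tested peaks it lowered 0.582% and raised 0.384%, so the 41 were 7.36% of members and the 15 were 2.69%. Peaks opened by both TNF and IL-1β went the other way by count, with 109 of 2212 raised (4.93%) and 13 lowered (0.588%), and the peaks with TNF coverage and no opening had 1.45% raised and 2.35% lowered. The median change under IL-17A was -0.14 (log2) over members, 0.14 over peaks opened by both and 0.01 over all peaks. IL-17A gave the lowest of the 8 group means in 114 members (20.5%), against 7.98% of all peaks. OSM did so in 113 members (20.3%), against 31.5% of all peaks, and IFNγ in 96 (17.2%), against 9.43%. NF-κB matches were in 17.1% of the 41 and AP-1 matches in 46.3%. The 41 fell to 22 without IL-17A replicate 4 and to 24 without IL-17A replicate 3, and the 15 to 8 without IL-17A replicate 2.

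The member that IL-17A lowered most was a distal peak named for REST (chr4:56937148-56937648), a repressor of neuronal genes, with 0.874, 1.52, 1.32 and 2.90 per Mb in the IL-17A libraries against group means from 3.62 to 5.54 under the other 7 (change -1.27 ± 0.20 SE, limma adjusted p = 1.86e-06). The member with the lowest IL-1β difference of all, a FAM92A intronic peak (chr8:93535584-93536084), was also lowered by IL-17A (1.73, 2.21, 3.09 and 2.52 per Mb; change -1.07 ± 0.18 SE, limma adjusted p = 1.73e-05). Under IL-1β that peak read 1.52, 3.09, 3.25 and 0.898 and unstimulated 4.74, 5.58, 3.53 and 3.62. Its IL-1β libraries thus lay below all unstimulated ones, as the rule's IL-1β limit allows. The largest rise under IL-17A was at a distal peak named for ELAVL2 (chr9:23932390-23932890), with 6.96, 8.14, 7.40 and 6.19 per Mb against group means of at most 4.40 (change 1.46 ± 0.22 SE, limma adjusted p = 8.33e-07).

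TGF-β1 raised 116 members (20.8%) and lowered 30 (5.39%), against 6.86% and 3.88% of all tested peaks. In peaks opened by both the shares were 28.1% and 2.08%, and in peaks with TNF coverage and no opening 7.95% and 17.0%. The split of the calls depended on GC content: with a correction for it 63 members were raised and 62 lowered (11.3% and 11.1%), against 1.98% and 6.31% of all tested peaks. The median change was 0.22 over members and 0.22 over all peaks, and the correction brought these to -0.02 and 0.01. Among peaks with a mean coverage of 1 per Mb or more the medians were 0.19 over members and 0.00 over all peaks, so where members stood against other peaks depended on the peaks set beside them. NF-κB and AP-1 matches were in 20.7% and 54.3% of the 116, against 50% and 33.3% of the 30. Among the 116, 41 had a TGF-β1 mean at or above their TNF mean.

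The largest rise under TGF-β1 was at a ZNF365 intronic peak (chr10:62577560-62578060), with 13.1, 12.1, 9.11 and 12.2 per Mb against group means of at most 3.50 (change 2.37 ± 0.23 SE, limma adjusted p = 2.37e-17) and 6.41 under TNF. Of the 9 members of the list that held collagen genes, contractile genes and TNC, 5 were raised and 0 lowered. The 5 were both COL6A3 peaks, COL4A1, COL12A1 and the TNC peak before the start site, which read 5.21, 4.18, 6.91 and 6.05 per Mb under TGF-β1 (change 0.94 ± 0.22 SE, limma adjusted p = 0.00097). The stronger COL6A3 peak lost its call with the GC correction and without TGF-β1 replicate 1. The LINC01539 peak with the highest coverage rose to 35.4, 41.1, 39.3 and 31.7 per Mb, beside 33.6 under TNF (change 0.93 ± 0.10 SE, limma adjusted p = 5.11e-15), and lay below the mean of the other 7 under IL-17A and IFNγ. Its IL-17A mean of 14.2 was close to the unstimulated 15.6, and TGF-β1 and OSM (32.7) were high in the mean it was set against. The largest fall was at a distal peak named for WASHC2A (chr10:50051888-50052388), to 1.45, 2.67, 1.52 and 3.01 per Mb (change -1.19 ± 0.19 SE, limma adjusted p = 2.29e-07).

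OSM raised 45 members (8.08%) and lowered 44 (7.90%), against 2.36% and 2% of all tested peaks. In the 74240 peaks of like TNF coverage the shares were 9.13% and 3.31%. The raised share of members was below theirs and the lowered share above. With the GC correction the numbers of members were 91 and 26 (16.3% and 4.67%), against 6.03% and 0.685% of all tested peaks, and the correction moved the median change over all peaks from -0.22 to -0.02. The 45 fell to 19 without OSM replicate 2, to 27 without OSM replicate 3 and to 29 without OSM replicate 1, and the 44 to 28 without OSM replicate 1. The largest fall was at an intronic peak of SLC25A1 (chr22:19191411-19191911), the mitochondrial citrate carrier, with 0.930, 0, 0.711 and 0.757 per Mb against group means of 2.57 or more (change -2.41 ± 0.20 SE, limma adjusted p = 6.43e-22). Its mean was 12.0 under TNF. The largest rise was in a LINC01349 intron (chr1:100631061-100631561), with 4.98, 7.63, 8.20 and 6.74 per Mb (change 1.65 ± 0.25 SE, limma adjusted p = 1.15e-07).

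IFNγ raised 29 members (5.21%) and lowered 24 (4.31%), against 2.41% and 0.801% of all tested peaks. In peaks of like TNF coverage the shares were 4.94% and 3.08%. Of the 29 raised members, 13 reached their TNF mean or more. The largest rise was at an intronic peak of BCAT1 (chr12:24861623-24862123), an enzyme of branched-chain amino acid breakdown, with 8.03, 10.7, 12.3 and 11.4 per Mb (change 2.28 ± 0.24 SE, limma adjusted p = 1.99e-15), above its TNF mean of 3.54. The largest fall was in a ZNF474 intron (chr5:122142416-122142916; 1.02, 2.80, 0.768 and 0.519 per Mb; change -1.48 ± 0.21 SE, limma adjusted p = 6.07e-09). ISRE matches were in 44.8% of the raised members and 19.4% of all members. At TNC, IFNγ raised 1 member (chr9:115106522-115107022) to 10.6, 12.7, 15.5 and 14.8 per Mb, above its TNF mean of 6.79 (change 1.99 ± 0.20 SE, limma adjusted p = 1.94e-16). The adjacent member (chr9:115107052-115107552) was not called under IFNγ (change 0.43, limma adjusted p = 0.53). IFNγ lowered 3 other members of the stretch. At chr9:115111061-115111561 the change was -0.65 (limma adjusted p = 0.0366), a call lost without IFNγ replicate 1, 2 or 4 or IFNα replicate 2. In the far part of the TNC body (chr9:115022963-115023463) the change was -0.70 (limma adjusted p = 0.000384), a call lost without IFNγ replicate 4. Past the end of TNC (chr9:115017487-115017987) the change was -1.30 (limma adjusted p = 6.53e-05).

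IFNα raised 26 members (4.67%) and lowered 5 (0.898%), against 0.826% and 0.801% of all tested peaks. In peaks of like TNF coverage the shares were 3.24% and 2.58%, the latter above that of members. Without IFNα replicates 1, 2 or 4 in turn the 26 fell to 15, 14 and 16, and the 5 to 3 without replicate 4. The largest rise was at a JAZF1-AS1 intronic peak (chr7:28151916-28152416), with 4.66, 3.43, 3.26 and 6.29 per Mb (change 1.47 ± 0.26 SE, limma adjusted p = 3.12e-05), and the largest fall at a distal peak named for WDR7 (chr18:56538710-56539210), with 0.382, 1.40, 0.329 and 0.458 per Mb (change -1.47 ± 0.24 SE, limma adjusted p = 2.62e-06).

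IL-13 raised 19 members (3.41%) and lowered 33 (5.92%), against 1.47% and 2.11% of all tested peaks. Both shares were below those of peaks of like TNF coverage, 4.54% and 7.60%. It lowered 22.0% of peaks opened by both TNF and IL-1β and raised 0.407%. The 33 fell to 17 without IL-13 replicate 2. The largest rise was at the TNFSF8-named distal member just past the end of TNC (chr9:115017487-115017987), with 7.0, 5.41, 5.57 and 5.07 per Mb (change 1.71 ± 0.25 SE, limma adjusted p = 3.91e-08), above its TNF mean of 3.93. IL-13 also raised 3 of the 5 TNC members, of which the peak at chr9:115111803-115112303 lost its call without IL-13 replicate 1, 3 or 4. The largest of the 3 changes was at chr9:115111061-115111561, with 10.0, 6.54, 8.78 and 8.22 per Mb (change 1.2 ± 0.20 SE, limma adjusted p = 1.31e-06). The largest fall was at a distal peak named for LOC400706 (chr19:46080553-46081053; 0.782, 0.763, 1.87 and 0.562 per Mb; change -1.52 ± 0.22 SE, limma adjusted p = 1.07e-08).

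IL-6 and IL-22 changed few members. IL-6 raised 0 and lowered 5 (0.898%) by limma, against 0.059% and 0.307% of all tested peaks. In peaks of like TNF coverage the shares were 0.222% and 1.1%. Of the 557 members, 109 (19.6%) were at an unadjusted limma p under 0.05, against 9.52% of all tested peaks. The number lowered was 1 without IL-6 replicate 4, 11 without replicate 3 and 9 without replicate 2, the last of which also gave 4 raised, and the GC correction gave 2 raised and 1 lowered. The largest of the falls was at an intronic peak of DDX10 (chr11:108916238-108916738; 0, 1.05, 0.450 and 0 per Mb; change -1.24 ± 0.28 SE, limma adjusted p = 0.0113), a call lost without IL-6 replicate 1 or 4 and with a pseudocount of 2. Under IL-22 the raised and lowered shares were 0.0125% and 0.0415% of all tested peaks and 0.0485% and 0.0956% of peaks of like TNF coverage. IL-22 raised 3 members (0.539%) and lowered 1 (0.180%). With 1 of the 4 IL-22 libraries left out, 0 or 1 was raised, and 0 were lowered except without replicate 2. The largest rise was at an intronic peak of MAP3K1 (chr5:56860856-56861356), a kinase upstream of JNK, with 4.74, 4.58, 5.06 and 7.19 per Mb (change 1.02 ± 0.23 SE, limma adjusted p = 0.0259, a call lost when any of the IL-22 libraries was left out). Its other group means ran from 0.285 per Mb under OSM to 7.07, so another cytokine had a higher mean than IL-22 (5.39). The BCAT1 peak was the member called lower under IL-22 than under the other 7, whose mean was raised by IFNγ, and its IL-22 mean (0.965) was close to the unstimulated mean (0.960). The IL-22 libraries read 0.595, 1.24, 0.799 and 1.23 per Mb (change -1.10 ± 0.24 SE, limma adjusted p = 0.0208), a call lost with the GC correction and without IL-22 replicates 1, 3 or 4.

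**Figure D5:**
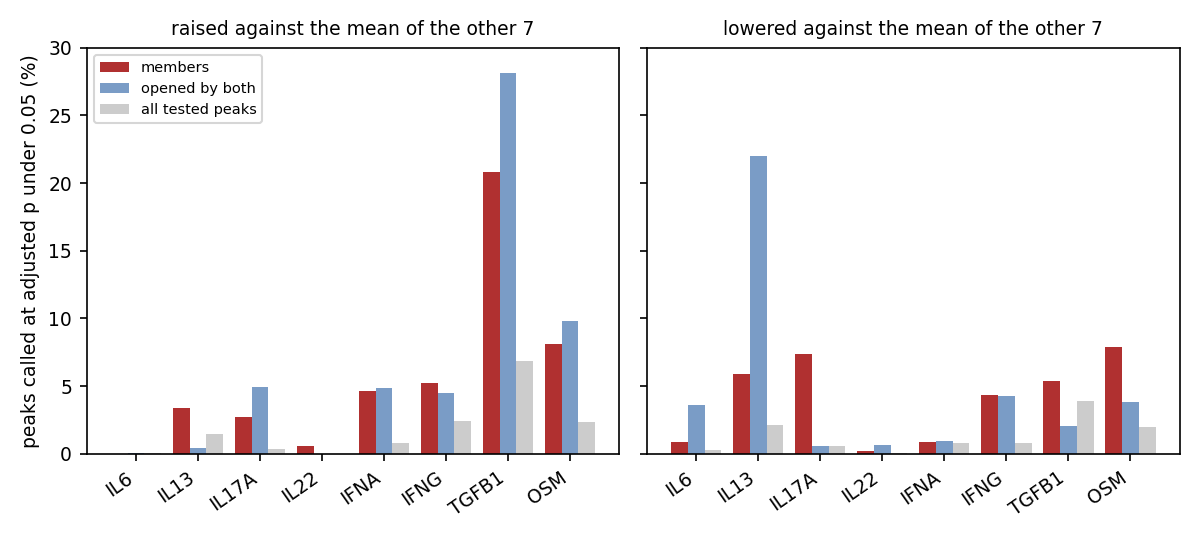
Percentage of peaks called raised (left) or lowered (right) at an adjusted p under 0.05 (y axis) by each cytokine against the mean of the other 7 (x axis), for the 557 members, the 2212 peaks opened by both TNF and IL-1β and all 407084 tested peaks. IL-17A lowered 7.36% of members and 0.588% of peaks opened by both, while it raised 2.69% and 4.93%.

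Summed coverage over all peaks ran from 148.8 to 823.1 Mb per library. IL-6 replicate 4 was the shallowest and stood apart, with 27.1% of peaks at 0, against 0.879% to 17.0% in the other libraries. Without it, the members raised and lowered were 26 and 39 for IL-13, 18 and 49 for IL-17A, 3 and 1 for IL-22, 31 and 7 for IFNα, 31 and 26 for IFNγ, 121 and 33 for TGF-β1, and 55 and 48 for OSM. Counts with a library left out are given without the matching share of all tested peaks. Such counts therefore do not show a change particular to the members. Of 10 fibroblast marker genes 7 had a promoter-class peak, with means over all libraries from 0.548 (LUM) to 24.9 per Mb (COL1A1), and none of 6 epithelial markers had one. Leukocyte markers had 2 of 6 (CD68 at 14.5 and ITGAM at 0.553, with no such peak at PTPRC), endothelial markers 5 of 5 at 0.429 to 1.87, smooth muscle markers 3 of 4 at 0.805 to 10.7 and glial markers 1 of 3 at 0.677. The part of other cell types or cell states in the results was not tested.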

How the data were processed

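ATAC-seq of Ccd18-Co cells was analysed in 44 libraries, grouped by the labels into 11 groups of 4. The authors aligned paired-end reads to hg38 with the ENCODE pipeline, called peaks with MACS2, and deposited unscaled read coverage (signal) summed over the bases of 407383 peaks of 500 bases from start to end. The study's methods describe fixed-width peaks of that size for its single-cell ATAC-seq and peaks of varying length for bulk data, and which calls this table rests on is not given in the sources used here. Coverage counts bases of whole reads rather than transposase cut sites or fragments, so it is not a read count.

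Coverage was divided by the library total in Mb. Members, gene lists and motifs were chosen with earlier results of these data known. The tests used limma 3.58.1 in R 4.3.3 on the 32 libraries that the rule did not read, with each cytokine against the mean of the other 7. Coverage per Mb was divided by a composition factor (trimmed mean of log ratios to the geometric mean library, trimming 30% of log ratios and 5% of means at each end), and log2 was taken after adding 0.5, which understates the change of low peaks. Peaks with a log2 mean of -3 or below were left out (299 peaks). eBayes used a mean-variance trend with 24 residual degrees of freedom, and Benjamini-Hochberg adjustment at 0.05 ran over all 407084 peaks. The fit was tested on simulated data. Library totals of 148.8 to 823.1 Mb make 1 read of 75 bases worth 0.0911 to 0.504 per Mb. Motifs were searched on both strands of the hg38 sequence of each peak, and start sites came from GENCODE v44. Peaks carry the gene and class of the deposited table.

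Peaks named were those with the 6 largest TNF differences, the 6 highest TNF coverages, the 6 highest among promoters, the genes and 100-kb stretches with most members, the largest called change per cytokine, the leading members of the gene lists, those nearest the limits and those with the lowest IL-1β difference. 1 member and 1 sequence that these rules select are not reported here. RXRA and CTSK, the adjacent pair of TNC peaks, the TNC promoter peak, and the CSF1, COL6A3 and LINC01539 calls were chosen after their values were seen. Alternatives were library totals, median of ratios, other pseudocounts and filters, all 44 libraries, a replicate block, a correction for GC content in 20 bins, and leaving out each library.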

Additional observations from a re-analysis of the deposited data

Results flagged for a closer look

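Of 66 groups of 4 libraries examined for a single library far from the rest (the members' median level in each of the 11 groups, and 5 of the members with the largest TNF difference in each group), 2 passed Dixon's 95% critical value, where chance flags about 1 in 20. At the CCL5 peak, TNF replicate 3 read 3.73 per Mb, while the other 3 read 6.30 to 6.44 (gap over range 0.948). The LINC01449 peak read 0.512 in OSM replicate 4 and 1.44 to 1.58 in the others (0.868). The low TNF library of CCL5 still lay above every unstimulated and IL-1β library of that peak.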

How the results depend on the processing

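In all, 3080 of 3181 recomputed values kept their direction and side of the threshold, or for counts and shares stayed near the reported value, and no named change reversed its direction. With 1 library left out, the number of members ran from 524 to 659. The members raised and lowered ran from 0 to 4 and 1 to 11 for IL-6, 16 to 26 and 17 to 39 for IL-13, 8 to 18 and 22 to 49 for IL-17A, 0 to 3 and 0 to 1 for IL-22, 14 to 31 and 3 to 7 for IFNα, 22 to 31 and 16 to 26 for IFNγ, 90 to 121 and 20 to 33 for TGF-β1, and 19 to 55 and 28 to 48 for OSM. The GC correction gave 63 raised and 62 lowered for TGF-β1, 91 and 26 for OSM, 2 and 1 for IL-6, and 0 lowered for IL-22, and the cause was not tested. A pseudocount of 2 gave 2 lowered by IL-6 and a pseudocount of 0.1 gave 1 raised by IL-22, and a filter at 1 per Mb of mean coverage gave 1 raised by IL-6. The rule itself gave 258 members with a pseudocount of 2, 185 with an IL-1β difference under 0 and 84 with a TNF difference of at least 1.5, the latter pair being subsets by construction. Pseudocounts of 0.1 and 2 put the median change of all peaks under TGF-β1 at 0.38 and 0.10. In the central 200 bases NF-κB and AP-1 matches were in 28.2% and 31.6% of members, and the 9-letter NF-κB form (GGANNTTCC) was in 24.4%.

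Replicate numbers did not pair the libraries: deviations from group means correlated by -0.027 to 0.032 between the 112 pairs of libraries with the same number. With the replicate block, 116 members were raised by TGF-β1, 41 lowered by IL-17A and 29 raised by IFNα, and no count moved by over 1.5 times. Peaks at 1 to 2 per Mb rest on few reads in the shallow libraries, where changes smaller than those called were not detectable.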
